A study of Mus musculus with 23 samples.

Results

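The cytosolic and mitochondrial heat shock chaperones were followed in 23 PyMT mammary tumor libraries. The 10 genes were taken by their symbols from 47643 gene identifiers: Hspa1a, Hspa1b, Hsph1, Dnajb1, Hspb1, Hsp90aa1, Hsp90ab1, Hspa8, Hspd1 and Hspe1. All 10 had reads in every library, and all 10 passed the filter on low values in every comparison. All tumors came from female C57BL/6 mice that carry the polyoma middle T oncogene, a model of mammary carcinoma. In a neutralization experiment, WT mice received human IgG1 isotype control (IgG, n = 5) or the IL-38 neutralizing antibody e04 (anti-IL-38, n = 6) once a week over 5 weeks, starting when the first tumor measured 0.6 cm. In a second experiment, treatment began at 13 weeks of age and also went on weekly for 5 weeks. It gave tumors of WT mice with Armenian hamster IgG (WT + IgG, n = 4), of IL-38 KO mice with the same IgG (IL-38 KO + IgG, n = 4) and of IL-38 KO mice with the γδ TCR blocking antibody UC7-13D5 (IL-38 KO + anti-γδTCR, n = 4). IL-38 is a cytokine of the interleukin 1 family. The control groups of the experiments differ in isotype, in the time of treatment and in experiment, and these cannot be told apart.

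Heat shock proteins bind unfolded or newly made proteins and help them fold. In the cytosol, Hsp70 proteins take up clients handed over by J-domain proteins, nucleotide exchange factors release them, and Hsp90 completes the folding of many kinases and receptors. In mitochondria, a chaperonin chamber encloses the client under a lid. Some of these genes, among them Hspa1a and Hspa1b, are low in unstressed cells and rise when heat or damaged proteins activate heat shock factor 1, whereas others, among them Hspa8 and Hsp90ab1, are made at all times. Tumor cells commonly rely on this system.

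RNA had been isolated from dissociated tumors, and 3′ mRNA sequencing counted reads near the transcript end. The depth was between 6273049 and 15879164 gene reads in a library. Of these, 0.410 to 0.694% fell on the 10 chaperones. Il1f10, which encodes IL-38, had 0 reads in all 23 libraries, which allows at most 0.189 to 0.478 CPM across libraries, where CPM gives reads relative to all gene reads of a library, so the knockout could not be checked at this depth. The 4 IL-38 KO + anti-γδTCR libraries and IL-38 KO + IgG replicate 4 stood apart from the other 18. They had 6273049 to 8794202 reads against 10138353 or more, and 1.31 to 1.98% of their reads lay on processed pseudogenes against 0.0943 to 0.191%. Gm42418, a gene that overlaps ribosomal RNA sequence, took 11.3 to 20.1% of their reads against 2.62 to 5.70%. In the deposited column names these libraries carry the numbers S19 to S23, and the other 18 carry S1 to S18. The name of IL-38 KO + anti-γδTCR replicate 3 also holds the mark rep. Neither the numbers nor this mark are explained. Counts of chaperones and some fold changes of the comparisons with IL-38 KO tumors are given with and without IL-38 KO + IgG replicate 4. Other values, among them the SDs within groups, most pair correlations and most list counts, include this library unless stated. Luminal epithelial markers summed to 1824 to 4805 CPM and all 12 were detected in every group.

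Heat shock elements, the sites of heat shock factors, are built from GAA units in alternating orientation. RefSeq promoter windows of GRCm38.p6, with 250 bases before and 50 after a start, were at hand for 7 of the 10 genes and not for Hsp90aa1, Hsp90ab1 and Hspa8. Sites of 2 units were searched as GAANNTTC or TTCNNGAA, each of which reads the same on both strands, and 15.1% of 32851 windows held one. Sites of 3 units (GAANNTTCNNGAA or its reverse complement TTCNNGAANNTTC, which contain a site of 2 units) stood in 0.603%. The 180 bases before the start of Hspa1a (chr17:34972157-34972336, minus strand) and Hspa1b (chr17:34959239-34959418, minus strand) are shown first. These genes have separate counts, though how reads were split between them is uncertain, and the stretches differ at only 1 base. Hspb1 (chr5:135887739-135887918, plus strand) follows as a gene of the same kind with 2 such sites. Capitals mark GAANNTTC.
Hspa1a: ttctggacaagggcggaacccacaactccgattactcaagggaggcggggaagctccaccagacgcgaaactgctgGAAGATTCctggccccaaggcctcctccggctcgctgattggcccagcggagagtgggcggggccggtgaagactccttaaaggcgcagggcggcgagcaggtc
Hspa1b: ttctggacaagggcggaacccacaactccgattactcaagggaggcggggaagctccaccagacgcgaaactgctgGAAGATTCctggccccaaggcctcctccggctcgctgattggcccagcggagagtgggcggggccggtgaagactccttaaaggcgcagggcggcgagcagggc
Hspb1: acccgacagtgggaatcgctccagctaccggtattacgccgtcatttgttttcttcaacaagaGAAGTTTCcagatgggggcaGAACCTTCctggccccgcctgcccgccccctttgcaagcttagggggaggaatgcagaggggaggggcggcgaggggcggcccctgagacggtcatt

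Hspd1 and Hspe1 lie head to head on chromosome 1, and a window of each held the same site of overlapping 3-unit elements (chr1:55088053-55088082, plus strand). Hsph1 held a 3-unit element just after its start (chr5:149636279-149636308, minus strand). All 30 bases of both stretches lie in annotated exons, the first inside the Hspd1 gene. Capitals mark the elements.
Hspd1 and Hspe1: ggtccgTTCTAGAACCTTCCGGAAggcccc
Hsph1: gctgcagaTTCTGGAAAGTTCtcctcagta

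Neither motif was found in either of the windows of Dnajb1. A match of letters is a description and was not tested as a site in these tumors.

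On GRCm38 the members lie on chromosomes 1, 5, 8, 9, 12 and 17. Hspa1b (chr17:34956436-34959238) and Hspa1a (chr17:34969190-34972156) are neighbours on the minus strand, and Hspd1 (chr1:55077835-55088243, minus) and Hspe1 (chr1:55088132-55091307, plus) overlap at their starts. The others are Hsp90ab1 (chr17:45567775-45573271), Hsph1 (chr5:149614287-149636376), Hspb1 (chr5:135887919-135889563), Dnajb1 (chr8:83608193-83612653), Hsp90aa1 (chr12:110690605-110702728) and Hspa8 (chr9:40800984-40810087). All 10 are annotated as protein coding, and the deposited values name the gene and not the exon.

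On the CPM scale, which here is not divided by length because 3′ reads are counted once per transcript end, Hsp90ab1 stood far above the others. This constitutive cytosolic Hsp90 had 3075 to 5511 CPM (median 4177) and made up 72.8 to 80.6% of the reads of the 10 genes. Its inducible relative Hsp90aa1 had 243 to 527 CPM (median 389), and the constitutive Hsp70 Hspa8 had 232 to 522 CPM (median 374). These neighbours could not be ordered, since Hsp90aa1 was above Hspa8 in 11 of 23 libraries. The mitochondrial cochaperonin Hspe1 had a median of 124 CPM and the chaperonin Hspd1 a median of 110 CPM, with Hspe1 higher in 16 of 23 libraries. Hsph1, a nucleotide exchange factor of Hsp70, followed with a median of 64.7 CPM. The inducible Hspa1b (median 53.0 CPM) and the J-domain protein Dnajb1 (median 50.9 CPM) were again close, with Hspa1b higher in 12 of 23 libraries. The small heat shock protein Hspb1 (median 29.97 CPM) and Hspa1a (median 15.5 CPM) were lowest. These are levels as counted. Processed pseudogenes, which are copies of mRNAs in the genome, were up to 99.7% identical to Hspa8 but only up to 91.8% to Hsp90ab1. How reads that fit both a gene and a copy were counted is not stated, and the part of this in the order of levels was not tested.

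The genes differed in how much they varied between tumors of a group. On the log2 scale of normalized counts, the SD within groups over 19 libraries was lowest for Hspd1 (0.16) and highest for Hspb1 (0.75), against a median of 0.39 over all tested genes. Hspa1a (0.46) and Hspa1b (0.44) also lay above this median, while Hsph1 (0.37), Dnajb1 (0.35), Hsp90aa1 (0.25), Hspa8 (0.22), Hspe1 (0.21) and Hsp90ab1 (0.19) lay below it. Hspb1 spanned 6.60 to 68.5 CPM over all libraries, which is 10.4-fold.

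**Figure D1:**
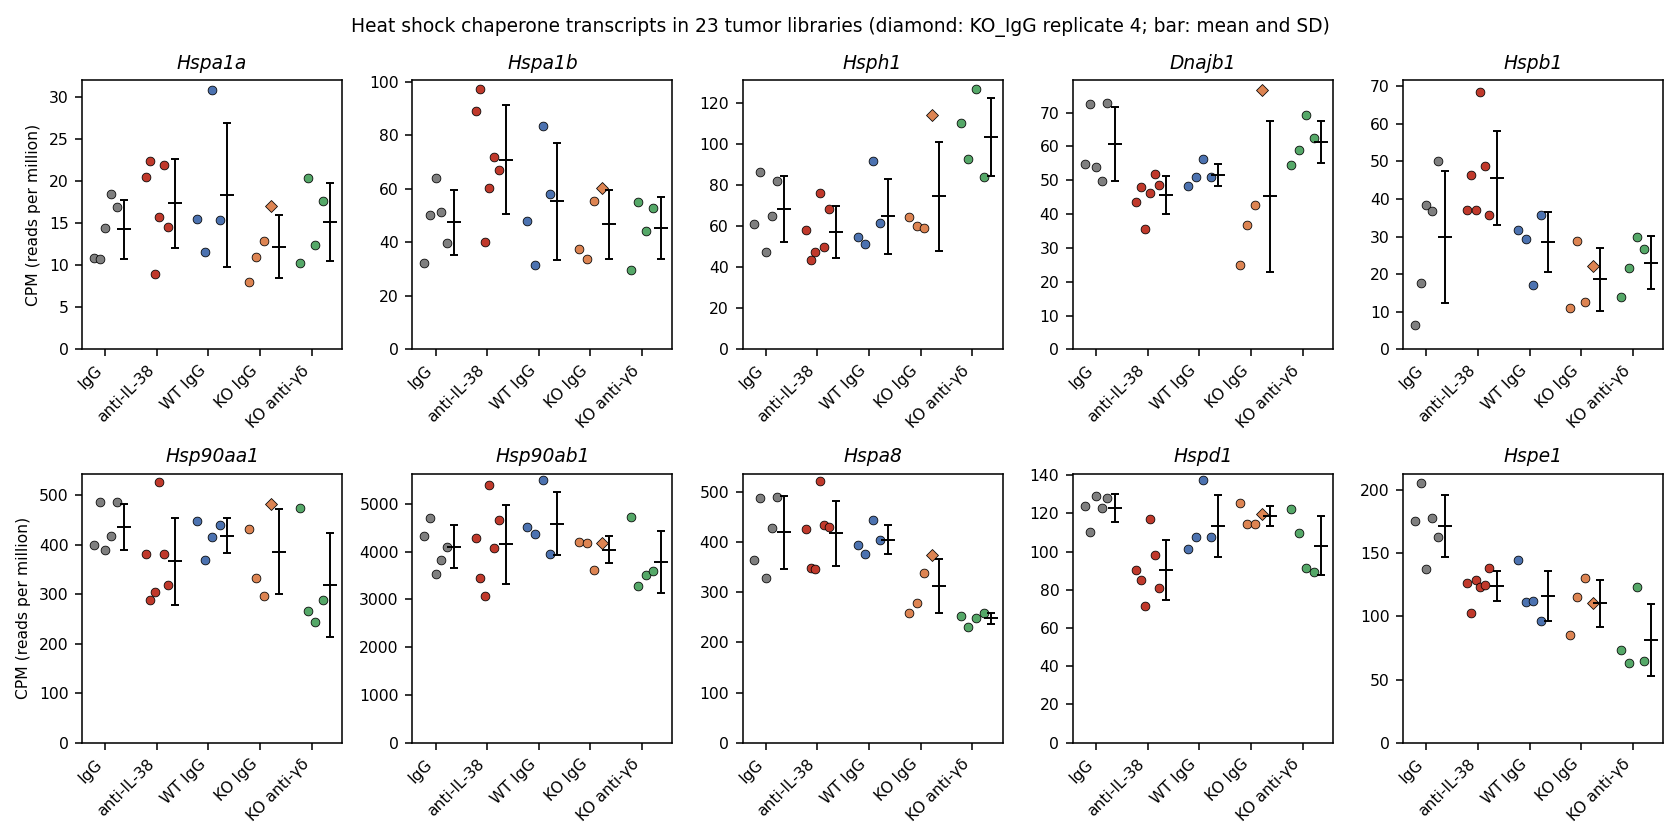
CPM (vertical axis, linear, from 0) of each chaperone in the 5 groups; each point is 1 tumor library, the diamond is IL-38 KO + IgG replicate 4, and bars give the mean and SD. Hspe1 was higher in all 5 IgG tumors than in 5 of 6 anti-IL-38 tumors, and Hspb1 ranged from 6.60 to 68.5 CPM.

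To ask whether IL-38 neutralization changed these chaperones, anti-IL-38 tumors were compared with IgG tumors. The mitochondrial pair was lower after the antibody and Hspa1b and Hspb1 were higher, but none of these differences passed the adjusted test. Values are normalized counts of the table of 19 libraries unless another scale is named. Hspd1 had 1506, 1405, 1686, 1514 and 1639 in IgG tumors and, in anti-IL-38 tumors, a lowest value of 1040, a median of 1122 and a highest of 1526. All but the highest anti-IL-38 tumor lay below every IgG tumor. The log2 fold change was -0.41 ± 0.12 (SE, limma, adjusted p = 0.401). Hspe1, which forms the lid of the Hspd1 chamber, had 2136, 2617, 1797, 2198 and 2082 in IgG tumors. In anti-IL-38 tumors its lowest value was 1340, its median 1599 and its highest 1884. Again 5 of 6 lay below every control, with a log2 fold change of -0.41 ± 0.12 (limma, adjusted p = 0.408).

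Hspa1b, the higher of the inducible Hsp70 genes, had 391, 637, 837, 634 and 509 in IgG tumors and 586 to 1269 (median 875) in anti-IL-38 tumors. In 4 of 6 treated tumors it was above every control, and the log2 fold change was 0.61 ± 0.21 (limma, adjusted p = 0.421). Hspa1a had a log2 fold change of 0.30 ± 0.23 (limma, adjusted p = 0.640). The small heat shock protein Hspb1 had 80.3, 223, 502, 453 and 643 in IgG tumors and 460 to 893 (median 573) in anti-IL-38 tumors. The groups overlapped, since 2 of the controls were low and the other 3 lay within or near the range of the treated tumors. The log2 fold change was 0.92 ± 0.43 (limma, adjusted p = 0.473), and 0.44 without IgG replicate 1, the lowest control (limma, adjusted p = 0.619). Dnajb1, which stimulates the ATPase of Hsp70, went the other way with 767 ± 150 (SD, n = 5) in IgG and 593 ± 49.4 (SD, n = 6) in anti-IL-38 tumors, a log2 fold change of -0.35 ± 0.13 (limma, adjusted p = 0.425).

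The remaining cytosolic chaperones differed by less. Hsp90aa1 was below every control in 5 of 6 treated tumors, yet the sixth held the highest value of both groups and the log2 fold change was -0.22 ± 0.15 (limma, adjusted p = 0.594). Hsph1 had a log2 fold change of -0.20 with a 95% interval of -0.59 to 0.19, Hsp90ab1 of 0.05 with -0.29 to 0.40, and Hspa8 of 0.05 with -0.25 to 0.34. With limma, 0 of 10 chaperones were called at an adjusted p below 0.05, against 0% of all 16002 genes tested. Likewise, edgeR and DESeq2 called 0 of 10 here, against 0% and 0.469% of all genes. At an unadjusted p below 0.05, 5 of 10 chaperones stood against 10.5% of all genes, 2 higher and 3 lower. This count was 4 with edgeR (10.7% of all genes) and with DESeq2 (11.7%), and 3 with limma without IgG replicate 2 (9.28%). The median log2 fold change of the 10 was -0.08, and that of all genes was 0.00. The luminal epithelial markers summed to 1824 to 3807 CPM in IgG and 2710 to 4805 CPM in anti-IL-38 tumors, with 11 of 12 above 0. T and NK cell markers were above 0 for 11 of 11 tested, with a median log2 fold change of 0.80 and sums of 9.86 to 30.7 CPM against 3.72 to 27.2 CPM in IgG tumors. In IgG against WT + IgG tumors these markers were below 0 for 11 of 11 (median -1.44), and both comparisons share the IgG libraries. The part of these lists in the differences was not tested. In bulk tumors, fewer cells of a type and less RNA per cell cannot be told apart.

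**Figure D2:**
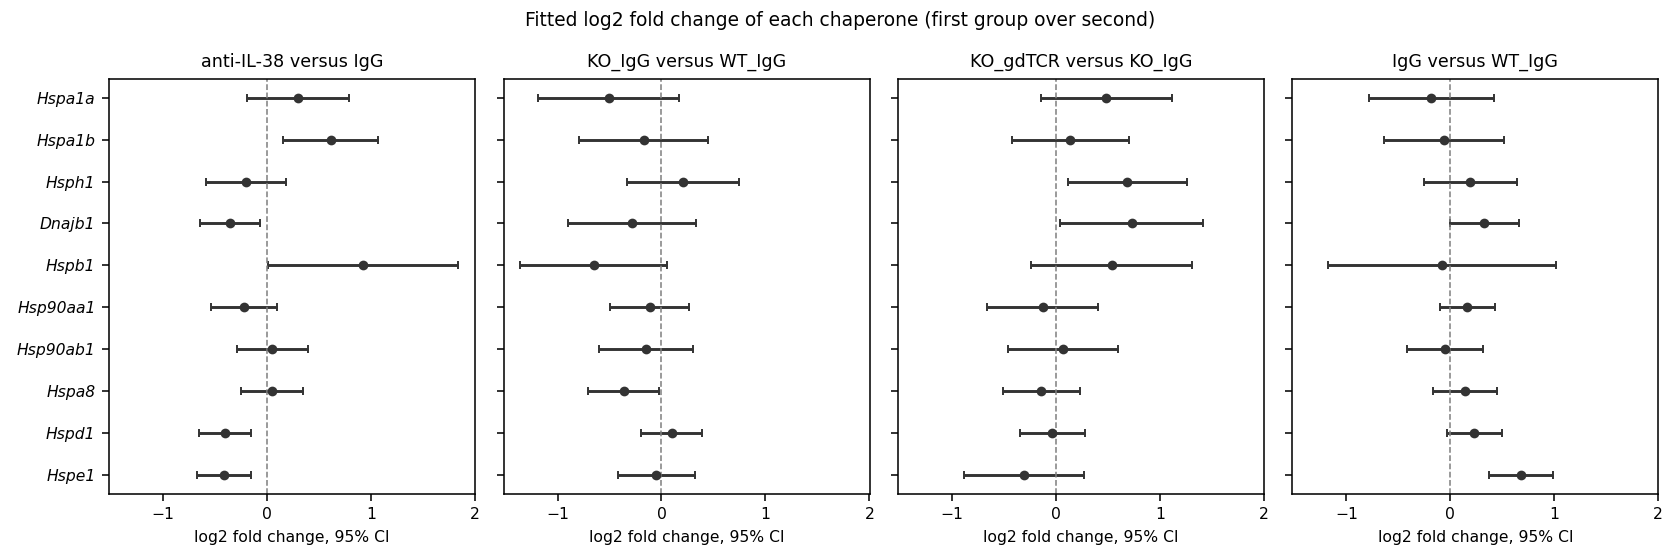
Fitted log2 fold changes (points) with 95% confidence intervals (bars) of the 10 chaperones in 4 comparisons, first group over second; the dashed line marks 0. The intervals of Hspd1, Hspe1 and Dnajb1 lie below 0 and those of Hspa1b and Hspb1 above 0 for anti-IL-38 versus IgG. That of Hspa8 lies below 0 for the knockout, those of Hsph1 and Dnajb1 lie above 0 for the blockade, and that of Hspe1 lies above 0 for IgG versus WT + IgG. None of these passed the adjusted test of limma.

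The next comparison, IL-38 KO + IgG with WT + IgG, addressed genetic loss of IL-38. Hspa8 was the chaperone with the smallest p. The constitutive Hsp70 had normalized counts of 4515, 4552, 5180 and 4693 in WT tumors and 3047, 3254, 4067 and 4542 in IL-38 KO tumors. The first 3 IL-38 KO tumors were below every WT tumor and replicate 4 overlapped with them, with a log2 fold change of -0.36 ± 0.16 (limma, adjusted p = 0.386). Dnajb1 had 552, 614, 654 and 590 in WT tumors and 295, 428, 511 and 934 in IL-38 KO tumors. It was thus below every WT tumor in 3 IL-38 KO tumors and above all of them in replicate 4, with a log2 fold change of -0.28 ± 0.28 (limma, adjusted p = 0.702). Hspb1 had 334 ± 92.6 (SD, n = 4) in WT and 221 ± 98.3 (SD, n = 4) in IL-38 KO tumors, a log2 fold change of -0.65 ± 0.32 (limma, adjusted p = 0.437). Without replicate 4 the log2 fold change was -0.46 ± 0.14 for Hspa8 (limma, adjusted p = 0.184), -0.58 ± 0.18 for Dnajb1 (limma, adjusted p = 0.196) and -0.79 ± 0.33 for Hspb1 (limma, adjusted p = 0.317).

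The mitochondrial pair gave no such difference between genotypes. Hspd1 had a log2 fold change of 0.10 with a 95% interval of -0.20 to 0.39, and Hspe1 of -0.05 with -0.42 to 0.32. Hspa1a had a log2 fold change of -0.51 ± 0.31 (limma, adjusted p = 0.515). It was -0.17 for Hspa1b, 0.21 for Hsph1, -0.11 for Hsp90aa1 and -0.15 for Hsp90ab1. These fits include IL-38 KO + IgG replicate 4. By limma, edgeR and DESeq2, 0 of 10 chaperones were called between genotypes, against 0.00604%, 0% and 1.84% of all genes. At an unadjusted p below 0.05, 1 of 10 stood against 12.1% of all genes. Although 8 of the 10 were below 0, against 50.6% of all genes above 0, the median log2 fold change was only -0.16 (0.01 for all genes). Without replicate 4, limma again called 0 of 10 (0.0431% of all genes), while 4 of 10 had an unadjusted p below 0.05 (14% of all genes), 9 were below 0 and the median was -0.28 (-0.01 for all genes). Skeletal muscle markers were above 0 for 14 of 14 genes, at 40.7 to 752 CPM in IL-38 KO and 20.1 to 141 CPM in WT tumors. Adipocyte markers were below 0 for 9 of 9, at 55.04 to 263 against 258 to 396 CPM. Macrophage markers were below 0 for 10 of 10, at 1208 to 2481 against 2318 to 3005 CPM, and T and NK cell markers for 10 of 12, at 11.8 to 33.8 against 17.6 to 44.2 CPM. The part of these lists in the chaperone values was not tested.

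The antibody and the knockout were set side by side and then pooled. Hspd1 had a log2 fold change of -0.41 with the antibody and 0.10 with the knockout, and Hspb1 had 0.92 and -0.65. The difference of these effects, tested as an interaction over 19 libraries, was -0.50 ± 0.17 for Hspd1 (limma, adjusted p = 0.564) and 1.58 ± 0.62 for Hspb1 (limma, adjusted p = 0.590). Without IL-38 KO + IgG replicate 4 these differences were -0.49 ± 0.18 and 1.71 ± 0.65 (limma, adjusted p = 0.581 for both). With limma, 0 of 10 chaperones were called for this difference against 0.00612% of all genes, and edgeR and DESeq2 also called 0, against 0% and 0.135%. At an unadjusted p below 0.05 there were 3, Hspa1b being the third, against 7.67% of all genes, and 5 without IL-38 KO + IgG replicate 4, against 7.72%. With both kinds of IL-38 inhibition pooled (10 versus 9 tumors), 0 of 10 chaperones were called by limma, edgeR or DESeq2, against 0%, 0.00612% and 0.428% of all genes. At an unadjusted p below 0.05 there were 0 of 10, against 10.5% of all genes, and 2 of 10 without IL-38 KO + IgG replicate 4, against 10.2%. Pooled log2 fold changes ranged from -0.31 for Dnajb1 to 0.29 for Hspa1b.

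The γδ TCR was blocked to ask for the role of γδ T cells in IL-38 KO tumors. In this comparison, IL-38 KO + anti-γδTCR with IL-38 KO + IgG, Hsph1 and Dnajb1 were higher in most treated tumors, and both were also high in 1 control. Values here are normalized counts of the table of 8 libraries, whose scale differs from the table of 19, and the controls are the IL-38 KO + IgG tumors of the comparison of genotypes. Hsph1 had 574, 532, 550 and 1090 in the controls and 1158, 911, 1442 and 812 with anti-γδTCR. All 4 treated tumors were above the first 3 controls, and replicate 4 of the controls lay among them. The log2 fold change was 0.69 ± 0.26 (limma, adjusted p = 0.151). Dnajb1 had 221, 324, 395 and 731 in the controls and 570, 578, 785 and 605 with anti-γδTCR, the same order. Its log2 fold change was 0.73 ± 0.31 (limma, adjusted p = 0.202).

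Without IL-38 KO + IgG replicate 4, both genes passed the test. The log2 fold change was then 0.93 ± 0.19 for Hsph1 (limma, adjusted p = 0.00702) and 1.04 ± 0.21 for Dnajb1 (limma, adjusted p = 0.00586). This made 2 of 10 chaperones called, against 14.3% of all genes (2357 of 16480), whereas with all 4 controls limma called 0 of 10, against 0% of all genes. With all 4 controls, edgeR and DESeq2 also called 0 of 10, against 0% and 6.29%, and at an unadjusted p below 0.05 limma had 2 of 10 against 21.7% of all genes, or 3 of 10 against 26.2% without replicate 4. Once replicate 4 is left out, every treated library belongs to those that stand apart and no control does, so the blockade and this property of the libraries cannot be told apart. The immediate early genes, which like heat shock genes respond quickly to stress, were above 0 for 18 of 19 with all controls, with a median log2 fold change of 0.38 against 0.02 for all genes (17 of 19 and 0.36 without replicate 4) and sums of 1324 to 2236 CPM against 1183 to 1698 CPM. Skeletal muscle markers were above 0 for 14 of 14, and for 13 of 14 without replicate 4 (147 to 1428 against 40.7 to 752 CPM), and macrophage markers were above 0 for only 3 of 10, or 2 of 10 without it (939 to 1495 against 1208 to 2481 CPM). The part of these lists was not tested.

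The other chaperones did not separate under γδ TCR blockade. Hspa1a had a log2 fold change of 0.48 ± 0.28 (limma, adjusted p = 0.362) and Hspb1 of 0.54 ± 0.35 (limma, adjusted p = 0.415). Hspa1b had 0.14 with a 95% interval of -0.42 to 0.70, and its direction turned with reads scaled to the library total (-0.04). Hspa8 had -0.14 with -0.51 to 0.23. Hspe1 had 773, 621, 1402 and 625 with anti-γδTCR and 756, 1020, 1207 and 1055 in the controls. The 1402 of replicate 3 was above every control while 2 treated tumors were below all of them (log2 fold change -0.30 ± 0.26, limma, adjusted p = 0.552). Hsp90ab1 had 0.07 with an interval of -0.46 to 0.60, which turned to -0.11 with reads scaled to the library total, a scaling that moved the median of all genes by -0.15. Without IL-38 KO + IgG replicate 4 the log2 fold change was 0.68 ± 0.27 for Hspa1a (limma, adjusted p = 0.131) and 0.68 ± 0.36 for Hspb1 (limma, adjusted p = 0.266). It was then 0.30 for Hspa1b, 0.11 for Hsp90ab1, -0.03 for Hspa8 and -0.28 for Hspe1, and limma called none of these 6.

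Hsp90aa1 and Hspd1 need a closer account, because reads of the libraries that stand apart also fell on copies of these genes. Processed pseudogenes are copies of mRNAs in the genome without introns, and their reads can be hard to tell from those of the parent gene. At 85% identity over 200 bases, 37 of 9943 processed pseudogene transcripts were assigned to a chaperone. None of them was assigned to Hspa1a, Hspa1b, Hsph1 or Dnajb1. The closest copies of Hspa8 and Hspb1 were 99.7 and 99.4% identical. Only reads counted on a copy enter the shares below. Since it is not stated how reads that fit both a gene and a copy were counted, a low share does not show that the gene is unaffected. Reads on the copies of Hsp90aa1 came to 0.0310 to 0.370% of the reads on the gene in 18 libraries, and to 19.7 to 45.4% in the 5 that stand apart. For Hspd1 these shares were 0 to 1.05% and 14.99 to 31.0%, and for Hsp90ab1 0.0360 to 0.166% and 2.02 to 3.17%. For Hspa8 they were 0.658 to 1.84% and 0.530 to 2.77%, without such a gap, for Hspe1 they stayed at or below 0.903%, and for Hspb1 at or below 1.81%. With these reads added to the parent, the log2 fold change under γδ TCR blockade turned from -0.12 to 0.21 for Hsp90aa1 (limma, adjusted p = 0.687) and from -0.03 to 0.18 for Hspd1 (limma, adjusted p = 0.557). Neither direction of these genes therefore held in this comparison.

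**Figure D3:**
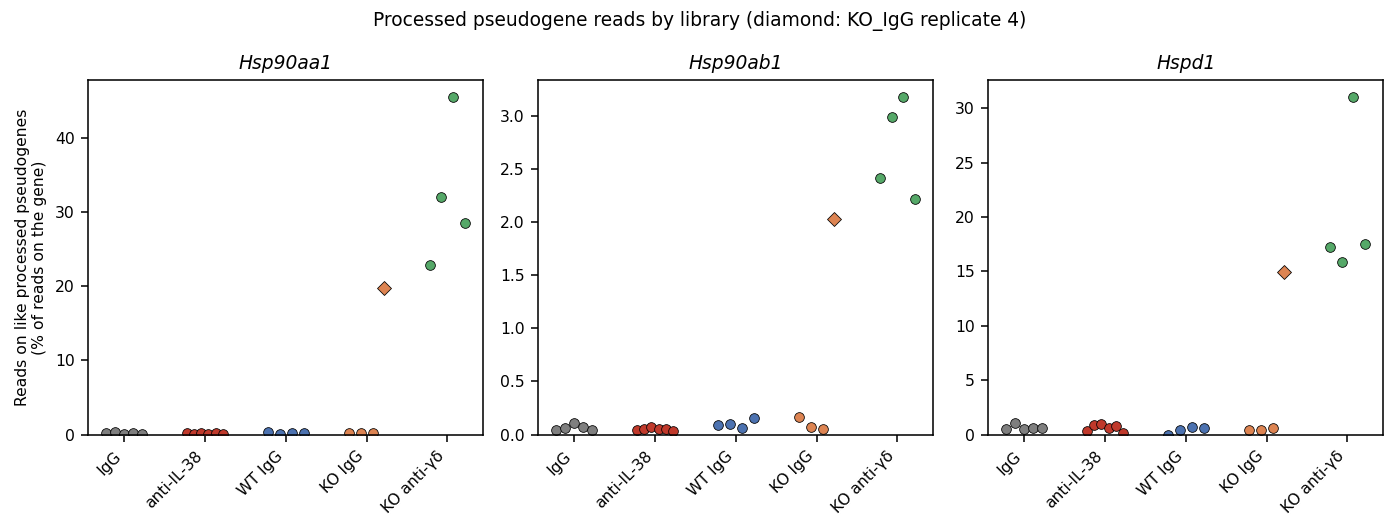
Reads on processed pseudogenes like Hsp90aa1, Hsp90ab1 and Hspd1, as a percentage of the reads on the gene itself (vertical axes, linear, from 0), in each of the 23 libraries by group; the diamond is IL-38 KO + IgG replicate 4. This library and the 4 anti-γδTCR libraries lie between 19.7 and 45.4% for Hsp90aa1, where the other 18 do not exceed 0.370%.

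The isotype controls of both experiments were also compared, because each experiment has its own. Hspe1 was higher in all 5 IgG tumors than in all 4 WT + IgG tumors, which had 1654, 1350, 1304 and 1123, and was the only chaperone of the 10 whose groups did not overlap in that direction, as did 3.45% of all genes. The log2 fold change was 0.68 ± 0.14 (limma, adjusted p = 0.0861), and DESeq2 called it (0.68, adjusted p = 0.00381). With means of 2166 ± 295 in IgG (SD, n = 5), 1625 ± 189 in anti-IL-38 (SD, n = 6), 1358 ± 221 in WT + IgG (SD, n = 4) and 1316 ± 230 in IL-38 KO + IgG tumors (SD, n = 4), the IgG group was the highest of the 4 groups of this table. The lower Hspe1 of anti-IL-38 tumors and this difference share the IgG libraries. Hspd1 had a log2 fold change of 0.23 ± 0.12 between the controls (limma, adjusted p = 0.328) and Dnajb1 of 0.33 ± 0.15 (limma, adjusted p = 0.269). The remaining chaperones ranged from -0.18 for Hspa1a to 0.19 for Hsph1. Between the controls, limma and edgeR called 0 of 10 chaperones and DESeq2 called 1, against 0.0994%, 0.0683% and 4.58% of all genes. At an unadjusted p below 0.05, 1 of 10 stood against 18.6% of all genes. Adipocyte markers were below 0 for 9 of 9 genes in this comparison, at 38.4 to 91.1 against 258 to 396 CPM. T and NK cell markers were below 0 for 11 of 11, at 3.72 to 27.2 against 17.6 to 44.2 CPM. Fibroblast markers were below 0 for 8 of 9, at 1220 to 4028 against 2978 to 6292 CPM, and B and plasma cell markers for 5 of 5. Neutrophil markers were above 0 for 7 of 8, and macrophage markers for 8 of 10. The part of these marker lists was not tested.

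Pairs of chaperones that act together were then followed across the 19 tumors of the larger table, as deviations from group means on the log2 scale. Of the 5 pairs, 3 passed a permutation test within groups (two-sided, 100000 resamples, adjusted over the 5 pairs). Hsph1 and Hspa8, an exchange factor and its Hsp70, had a Pearson r of 0.82 (permutation adjusted p = 0.000300) and a Spearman rho of 0.75 (permutation adjusted p = 0.00555). Within the experiments r was 0.92 (11 tumors, permutation adjusted p = 0.00215) and 0.72 (8 tumors, permutation adjusted p = 0.0941), and it was 0.74 without the 2 tumors farthest from the median of Hsph1. Hspa1a and Hspa1b had an r of 0.79 (permutation adjusted p = 0.00187) and a rho of 0.73 (permutation adjusted p = 0.00555). Within the experiments it was 0.68 and 0.89, and without the 2 farthest tumors 0.72. The annotated transcripts of this pair were 99.1% identical over 2200 aligned bases from their start, whereas blastn found no alignment between their last 300 bases. The deposited values do not say where in a transcript the reads lay, so how reads were split between these genes is uncertain, and its part in the correlation was not tested. Hspa1b exceeded Hspa1a by 2.34- to 4.68-fold in CPM in every library.

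The other pairs were less stable. Hsp90aa1 and Hsp90ab1 had an r of 0.58 (permutation adjusted p = 0.0221) and a rho of 0.44 (permutation adjusted p = 0.0825). Without the 2 tumors farthest from the median of Hsp90aa1, r was 0.23 (permutation adjusted p = 0.365). Leaving out the ends of the range of 1 gene can lower r by itself, so this does not show that the relation rests on those tumors. Within the experiments r was 0.73 and 0.28. Dnajb1 and Hspa1b had an r of 0.38 (permutation adjusted p = 0.118), a rho of 0.44 (permutation adjusted p = 0.0825), 0.14 and 0.53 within the experiments, and 0.25 without the 2 farthest tumors. Hspd1 and Hspe1, whose products form 1 chaperonin and whose genes overlap at their starts, had an r below 0 at -0.40 (permutation adjusted p = 0.118) and a rho of -0.54 (permutation adjusted p = 0.0438). It was -0.43 within the neutralization experiment and -0.38 within the other, and -0.27 without the 2 farthest tumors, all below 0. The rank correlation passed the test over 19 tumors and the Pearson correlation did not. With reads scaled to the library total, rho was -0.52 (permutation adjusted p = 0.0390). Without IL-38 KO + IgG replicate 4 rho was -0.50 (permutation adjusted p = 0.0792), and without the 2 farthest tumors -0.35 (permutation adjusted p = 0.224). Within the experiments rho was -0.51 and -0.48 (permutation adjusted p = 0.194 and 0.387). The rank result thus did not pass in these smaller sets. The CPM ratio of Hspe1 to Hspd1 ranged from 0.579 to 1.86 over all libraries.

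**Figure D4:**
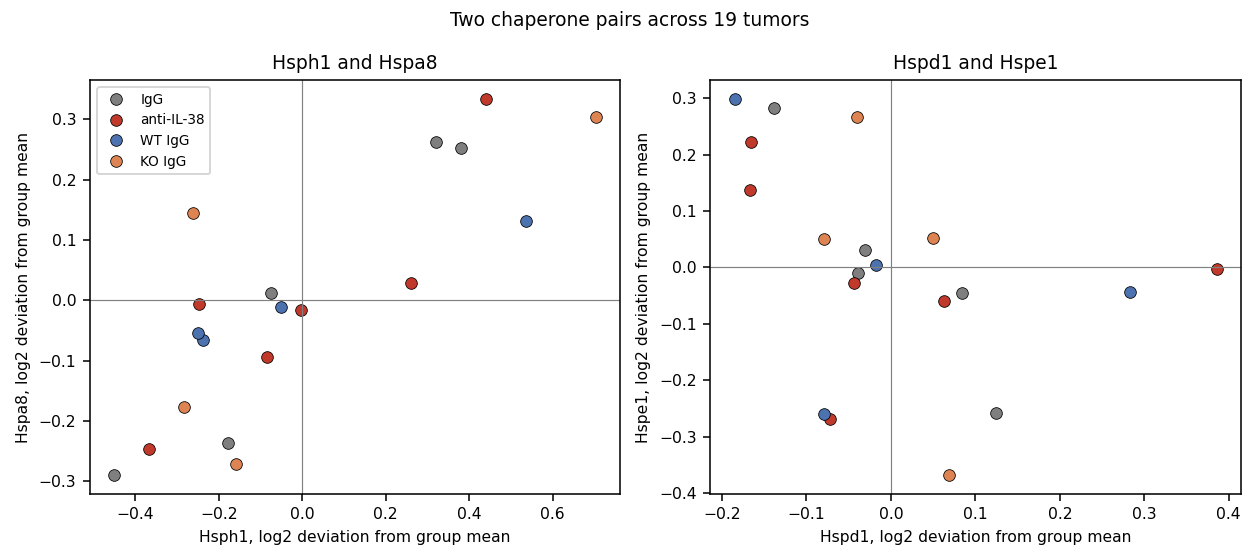
Deviations from the group mean on the log2 scale of normalized counts for Hsph1 and Hspa8 (left) and for Hspd1 and Hspe1 (right); each point is 1 of 19 tumors, coloured by group. The left pair rises together (r = 0.82), while the right pair does not (r = -0.40).

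The genes outside all lists with the pattern most like a pair of chaperones were ranked by r over the same 19 tumors, as a description. For the mean of Hspa1a and Hspa1b these were Ccdc30 (0.77), Ahdc1 (0.77), Col13a1 (0.76), Nup107 (0.76) and Spink12 (0.75). For the mean of Hspd1 and Hspe1 they were Vps51 (0.82), Dctn3 (0.82), Prdx2 (0.80), Gadd45gip1 (0.79) and Ndufb4 (0.78). The points share their library and its depth.

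Other genes of the folding machinery were counted by lists of cochaperones and chaperones: heat shock factors and regulators (10), other Hsp70 and Hsp110 genes (8), cytosolic J-domain cochaperones (16), BAG and other Hsp70 cochaperones (10), Hsp90 cochaperones (16), other small heat shock proteins (9), other mitochondrial chaperones and proteases (14), TRiC and prefoldin (14) and ER chaperones (16). With limma, 0 of these genes were called in any of the 6 comparisons over all libraries. The list of ER chaperones had mostly higher fitted values with IL-38 inhibited. Its genes act mostly in folding secreted proteins, but it also holds Ddit3, which encodes a transcription factor. Of the 16 genes, 15 were above 0 with the antibody (median log2 fold change 0.22), with the knockout (0.26) and pooled (0.26), against 50.2 to 50.6% of all genes. The pooled fit reuses the libraries of the antibody and knockout comparisons. This list was also above 0 for 15 of 16 in IgG against WT + IgG (0.19), where the IgG tumors that serve as controls of the antibody were the higher ones. Under γδ TCR blockade only 9 of 16 were above 0 (0.0028), or 5 of 16 without IL-38 KO + IgG replicate 4 (-0.11). TRiC and prefoldin, the chaperonin of the cytosol and its feeder, were below 0 for 11 of 14 with the antibody (-0.13) and for 7 of 14 with the knockout. In IgG against WT + IgG they were above 0 for 12 of 14 (0.14), so the controls of the antibody were again the higher ones.

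The genes of these lists with the smallest p were as follows. With the antibody, the J-domain protein Dnajc9 had 405 ± 53.2 in IgG and 275 ± 14.9 in anti-IL-38 tumors (log2 fold change -0.55 ± 0.12, limma, adjusted p = 0.326). Hspa2, an Hsp70 best known from the testis, had a log2 fold change of 0.71 ± 0.22 (limma, adjusted p = 0.412). Between genotypes, Dnajb12, a J-domain protein of the ER membrane, had 0.58 ± 0.16 (limma, adjusted p = 0.249) and Clpx, a subunit of a mitochondrial protease, had 0.67 ± 0.19 (limma, adjusted p = 0.255). Both fits include IL-38 KO + IgG replicate 4. Under the blockade without that replicate, Dnajb12 had 0.67 ± 0.20 (limma, adjusted p = 0.0433) and Clpx 0.52 ± 0.20 (limma, adjusted p = 0.125). Under γδ TCR blockade, St13, which binds Hsp70, had 2712 ± 1607 in the controls and 5696 ± 1310 with anti-γδTCR, a log2 fold change of 1.20 ± 0.32 (limma, adjusted p = 0.0686). Bag2, an exchange factor, had a log2 fold change of -0.86 ± 0.24 (limma, adjusted p = 0.0722). Without IL-38 KO + IgG replicate 4, St13 had 1.55 ± 0.18 (limma, adjusted p = 0.000130) and Bag2 had -0.77 ± 0.26 (limma, adjusted p = 0.0772), and 5 of 16 J-domain cochaperones were called higher, against 14.3% of all genes called in either direction. In that fit the other calls of these lists were Ier5 (1.09 ± 0.15, limma, adjusted p = 0.000486) among the heat shock factors and regulators and Hspa4 (0.52 ± 0.15, limma, adjusted p = 0.0448) among the other Hsp70 and Hsp110 genes. None was called of 16 Hsp90 cochaperones, 14 mitochondrial chaperones and proteases, 14 TRiC and prefoldin genes, 16 ER chaperones and 6 small heat shock proteins. These calls have the same limit from the libraries that stand apart. Pooled, Hspa4l (-0.31 ± 0.10, limma, adjusted p = 0.309) and Dnajc2 (-0.25 ± 0.08, limma, adjusted p = 0.316) came first. For the difference between antibody and knockout, these were Hspa2 (1.06 ± 0.32, limma, adjusted p = 0.543) and Dnajb2 (0.97 ± 0.32, limma, adjusted p = 0.564). Between the control groups, they were Hspa2 (-0.98 ± 0.20, limma, adjusted p = 0.0861) and the ER lectin chaperone Canx (0.53 ± 0.13, limma, adjusted p = 0.111). With all libraries, none of these differences passed the adjusted test.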

How the data were processed

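Tumor RNA was sequenced by QuantSeq 3′ mRNA libraries (single reads, 75 cycles, 500 ng RNA) and the authors ran the BlueBee Genomics QuantSeq pipeline. The submitters' processing notes name STAR, HTSeq, DESeq2 and GRCm39. The deposited signal values are counts that the authors divided by 1 size factor per library, separately in tables of 19 and 8 libraries, which share the 4 IL-38 KO + IgG libraries with identical reads for every gene. Division by the value of 1 read gave whole reads for 100% of values within 0.0001%, except that in WT + IgG replicate 1 this value was 0.996, too near 1 to tell from rounding. Totals were 6273049 to 15879164 reads, and floors (3 counts) cover counting error only. Names and positions came from GENCODE M21 (GRCm38), which differs from the build named.

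Values of genes with a mean of at least 5 were put on the scale log2(normalized count + 1), and limma 3.58.1 compared them (trend, two-sided, R 4.3.3, Benjamini-Hochberg over all genes, threshold 0.05) using the libraries of each comparison, or 19 for the interaction. Fold changes on this scale understate changes of low genes. The titles number the libraries of a group and do not name animals. Beside the S number, the column names hold a further number for each library, and what it marks is not stated. The p-values and 95% intervals thus measure the spread between these libraries. Every pair of libraries within a group differed by more than sampling noise (chi-square per degree of freedom at least 17.1). Alternatives were pseudocounts of 0.5 and 5, no filter or a mean of at least 20, TMM, quantile or library-total scaling, edgeR 4.0.16 and DESeq2 1.42.0 on whole reads, a replicate block, an experiment term and leaving out each library. Like pseudogenes (blastn 2.17.0, 85% over 200 bases) were added, and the Hspa1a and Hspa1b transcripts aligned, after seeing the data. On simulated counts with 200 changed genes (log2 size 2) limma recovered 197 in the interaction (16362 genes) and 200 in each other comparison, with 6 to 17 false calls. The changed genes had a mean of at least 20, and all genes shared 1 dispersion. This size exceeds every fitted difference of a chaperone, so the recovery does not show whether changes of the sizes seen here would be called.

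The members, lists, pairs and rules were chosen with earlier results of these data known. Named were all 10 members, related chaperone genes past the threshold (otherwise the 2 with the smallest p) and the 5 genes most like each of 2 pairs. Not every member is given with its own fold change in the pooled, interaction and control comparisons. Some marker lists that move with a result are given, as counts of genes above or below 0 and mostly also as summed CPM.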

Additional observations from a re-analysis of the deposited data

Results flagged for a closer look

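Of 50 sets of values (10 chaperones in 5 groups), 7 held a tumor whose gap to its nearest neighbour was large for the range of its group by Dixon's test, where chance gives about 1 in 20. Anti-IL-38 replicate 4 was highest for Hsp90aa1 at 6880 (next 4767), for Hspb1 at 893 (next 606) and for Hspd1 at 1526 (next 1219) normalized counts. Without it, the log2 fold change of anti-IL-38 against IgG was -0.33 for Hsp90aa1, 0.80 for Hspb1 and -0.48 for Hspd1, and none of these was called by limma.

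IL-38 KO + IgG replicate 4 was highest for Hsph1 at 1392 (next 764). In the table of 8 libraries, IL-38 KO + anti-γδTCR replicate 3 was highest for Dnajb1 at 785 (next 605), and replicate 1 was highest for Hsp90aa1 at 4958 (next 2795) and lowest for Hspa1b at 310.0 (next 501).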

How the results depend on the processing

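The count of called chaperones stayed at 0 of 10 in 66 of 68 alternatives that keep all libraries or add pseudogene reads, and in 73 of 74 that leave out 1 library. The exceptions were DESeq2 for IgG against WT + IgG (1, Hspe1) and γδ TCR blockade without IL-38 KO + IgG replicate 4 (2, Hsph1 and Dnajb1, also 2 with pseudogene reads added). Depth limits the lowest genes, with 6.60 CPM for Hspb1 and 8.003 CPM for Hspa1a in their lowest library.

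Leaving out each library gave 0 to 2 called chaperones under γδ TCR blockade. It gave 0 to 6 called genes of all for the antibody, 0 to 7 for the knockout, 0 to 2357 for the blockade, 0 to 23 pooled, 0 to 2 for the interaction and 0 to 45 between the controls. The libraries behind these changes of over 1.5 times include IgG replicate 3 for the antibody (6) and pooled (23), WT + IgG replicate 3 and IL-38 KO + IgG replicate 4 for the knockout (7 each), IgG replicate 1 (45) and WT + IgG replicates 1, 2 and 4 (0 each) between the controls.

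Over all genes, limma called 0, 1, 0, 0, 1 and 16 for the antibody, the knockout, the blockade, pooled, the interaction and the controls. DESeq2 called 75, 305, 1036, 70, 22 and 738. edgeR called 0 for the knockout, 1 pooled and 0 for the interaction, and an experiment term called 1 pooled. Between the controls, a pseudocount of 0.5 called 7 and library-total scaling 30. Pseudogene reads added with 3 controls called 2357 under the blockade. The causes were not tested.

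Chaperones with an unadjusted p below 0.05 numbered 3 to 5 for the antibody when 1 library was left out, 0 to 4 for the knockout, 0 to 3 for the blockade, 0 to 2 pooled, 2 to 5 for the interaction and 1 to 2 between the controls. Of uncalled values given in the text, leaving out IL-38 KO + IgG replicate 1 brought Dnajb1 to 0.47 and Hspb1 to 0.31 under the blockade, and leaving out IL-38 KO + anti-γδTCR replicate 3 brought Hspe1 to -0.57.

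The replicate numbers did not pair the tumors, with correlations of same-numbered deviations from -0.17 to 0.08, and not every tumor correlated best with its own number. Pairing by the further numbers in the column names was not tested. With a replicate block, 1 gene was called for the antibody, 0 for the knockout and 36 between the controls, and 0 of 10 chaperones in every comparison.

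Of pairs, 3 of 5 passed over 19 tumors, 1 within the neutralization experiment and 0 within the other.

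Some uncalled log2 fold changes turned sign. For the antibody these were Hsp90ab1 with quantile normalization (-0.11) and Hspa8 with library-total scaling (-0.0029). Under the blockade they were Hspa1b (-0.037) and Hsp90ab1 (-0.11) with library-total scaling, and Hsp90aa1 (0.21, or 0.41 with 3 controls) and Hspd1 (0.18, or 0.25 with 3 controls) with pseudogene reads added. Between the controls it was Hspb1 with edgeR (0.20) and DESeq2 (0.20). Library-total scaling moved the median of all genes to -0.15 under the blockade and -0.13 between the controls.

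Leaving out 1 library turned 18 of 60 fold changes at least once. For the antibody these were Hsp90ab1 (-0.028 to 0.11) and Hspa8 (-0.025 to 0.11), and for the knockout Hspa1b (-0.40 to 0.053), Hsph1 (-0.025 to 0.39) and Hspe1 (-0.14 to 0.073). Under the blockade they were Hspa1b (-0.015 to 0.32), Hsp90aa1 (-0.34 to 0.011), Hsp90ab1 (-0.052 to 0.16) and Hspd1 (-0.13 to 0.061). Pooled, they were Hspa1a (-0.11 to 0.085), Hsph1 (-0.12 to 0.029) and Hsp90ab1 (-0.082 to 0.0064). For the interaction they were Dnajb1 (-0.32 to 0.23) and Hsp90aa1 (-0.22 to 0.019), and between the controls Hspa1a (-0.35 to 0.10), Hspa1b (-0.29 to 0.16), Hspb1 (-0.35 to 0.40) and Hsp90ab1 (-0.12 to 0.041).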
